A study of Arabidopsis thaliana with 4 samples.

Results

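Roots and flowers of Arabidopsis thaliana, the thale cress, were compared gene by gene in the laboratory accession Col-0. The comparison took every locus of the deposited expression table with a usable status in both organs and an expression value of at least 1 FPKM in either, which left 22515 of 34288 loci. FPKM is the number of sequenced fragments for each kilobase of a transcript, set against library depth. The measure of difference was the log2 of (roots + 1)/(flowers + 1), positive where a locus was higher in roots, a scale that understates the differences of weakly expressed genes. Roots came from plants aged 2 weeks on plates of MS medium, and flowers from plants aged 5 weeks in soil, both in long days at 22 °C and with no mutation or treatment given in the labels. Organ, age and medium therefore differed together and cannot be told apart. Leaves (labelled so, and described as the aerial part, aged 2 weeks on plates) and siliques, the seed pods (aged 5 weeks, in soil), are given beside the comparison for reference. Each organ was 1 library. No value has a replicate error, no p-value could be computed, and each difference is between these libraries. In bulk organs, fewer cells of a type and less RNA per cell cannot be told apart.

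A root takes up water and mineral ions through an epidermis with hairs, filters them at the endodermis behind the Casparian strip, and stiffens its growing walls with proline-rich extensins. It also stores defence compounds, among them glucosinolates and the glucosidases of ER bodies, compartments of the endoplasmic reticulum. A flower forms its organs under MADS-box transcription factors, and its stamens carry the tapetum, the cell layer that feeds the young pollen and coats it with lipids and oleosin-like proteins. Floral organs also bear a waxy cuticle, release scents, secrete nectar from nectaries at the base of the stamens and hold green tissue.

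At a 4-fold difference, 1953 loci were higher in roots (8.67% of those compared) and 2865 were higher in flowers (12.7%). At 8-fold the counts were 1019 (4.53%) and 1589 (7.06%), and at 2-fold, the threshold used for the gene lists here, 3871 (17.2%) and 5621 (25%). The median ratio over all compared loci was -0.05, with quartiles of -0.998 and 0.57. Many of these differences were between presence and near absence. Of the loci higher in roots, 1138 (58.3%) were below 1 FPKM in flowers, and of those higher in flowers 1753 (61.2%) were below 1 FPKM in roots. Loci higher in flowers held 29.3% of the summed FPKM of the flower library, and loci higher in roots held 19.5% of that of the root library. The median level of the loci higher in flowers was 21.7 FPKM in flowers, 10.5 in siliques and 2.95 in leaves. The loci higher in roots had a median of 20.9 FPKM in roots, 0.999 in leaves and 0.514 in siliques. The authors' intervals around each FPKM were wide, and at 10 FPKM or more 75.5% of them in roots and 75.1% in flowers reached down to 0. With intervals that did not overlap, 154 loci (0.684%) were 4-fold higher in roots and 230 (1.02%) in flowers.

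**Figure D1:**
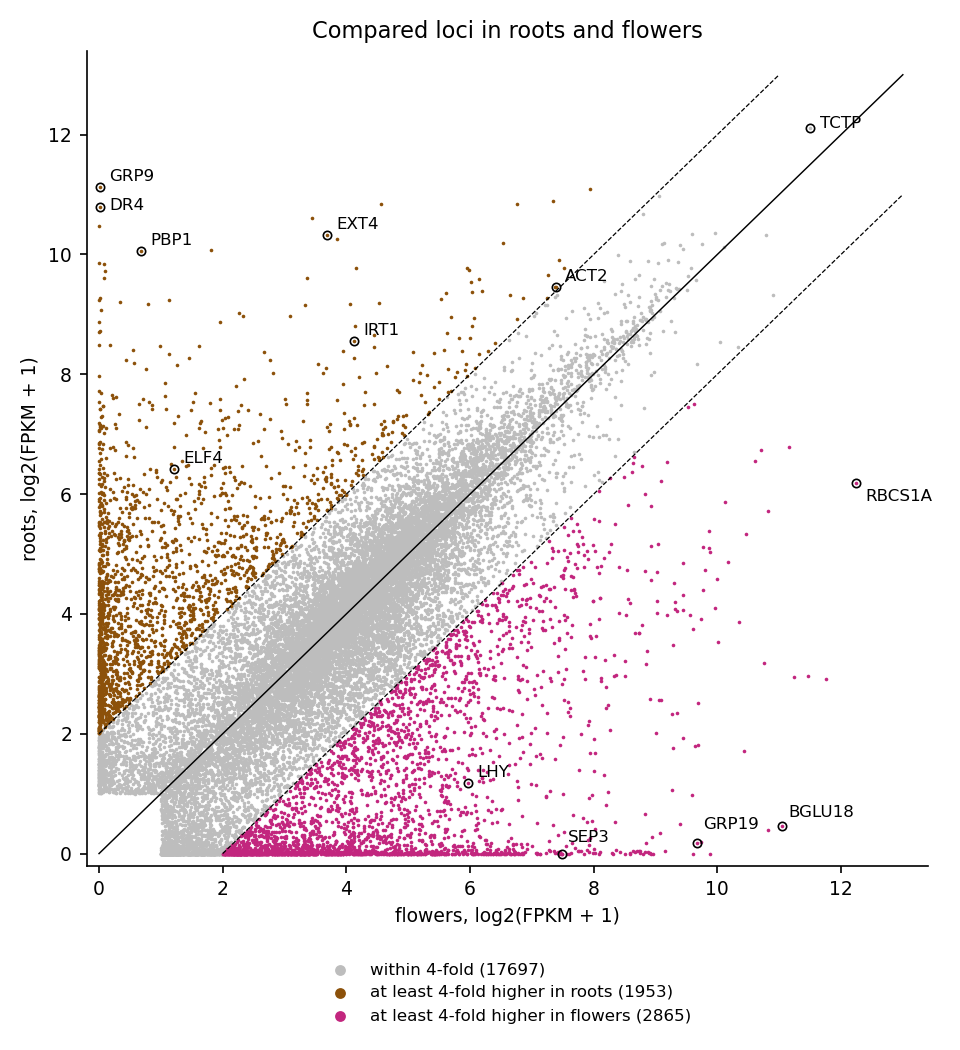
Each point is 1 of the 22515 compared loci, with its log2(FPKM + 1) in flowers on the x axis and in roots on the y axis. The solid line marks equal values and the dashed lines a 4-fold difference; 1953 loci lie above and 2865 below, many of them along an axis, and circles mark genes named in the text.

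Sequence features were counted outside the levels. Windows of 250 bases before each gene start in the reference (TAIR10.1) were searched for short words. The letters TATAAA, the core of a TATA box, searched on the gene's strand, were in 39.6% of the windows of loci higher in roots, 35.02% of those higher in flowers and 32.6% of all 20544 windows. Between 50 and 15 bases before the start, where a TATA box is usually found, the shares were 12.6%, 12.3% and 9.11%. GGCCCA, a word known from promoters of ribosomal and other housekeeping genes and searched on both strands, was in 4.11% of windows of loci higher in roots and 9.81% of those higher in flowers. Among all windows its share was 15.5%, and among loci within 4-fold it was 17.7%. Shown first are the 2 loci with the largest ratio in each direction among those with TATAAA, and then the first pair, by locus code, of reference genes within 2-fold that hold GGCCCA, with these words in capitals.
DR4 (AT1G73330), chr1:27569824-27570073, minus strand: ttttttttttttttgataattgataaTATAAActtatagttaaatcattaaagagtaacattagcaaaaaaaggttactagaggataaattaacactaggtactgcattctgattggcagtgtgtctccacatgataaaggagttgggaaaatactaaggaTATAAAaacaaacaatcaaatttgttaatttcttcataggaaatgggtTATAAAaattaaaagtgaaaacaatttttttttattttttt
AT3G28550 (AT3G28550), chr3:10704019-10704268, minus strand: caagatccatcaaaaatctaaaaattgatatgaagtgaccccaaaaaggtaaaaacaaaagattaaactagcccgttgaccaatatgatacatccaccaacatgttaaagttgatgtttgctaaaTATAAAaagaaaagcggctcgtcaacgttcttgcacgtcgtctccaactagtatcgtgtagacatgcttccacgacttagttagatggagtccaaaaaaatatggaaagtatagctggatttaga
BGLU18 (AT1G52400), chr1:19514739-19514988, plus strand: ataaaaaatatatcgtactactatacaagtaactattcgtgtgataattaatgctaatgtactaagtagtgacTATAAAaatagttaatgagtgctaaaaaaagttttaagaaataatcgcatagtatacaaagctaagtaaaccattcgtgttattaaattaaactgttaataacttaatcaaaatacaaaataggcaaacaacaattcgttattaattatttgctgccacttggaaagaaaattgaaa
TGG2 (AT5G25980), chr5:9072458-9072707, plus strand: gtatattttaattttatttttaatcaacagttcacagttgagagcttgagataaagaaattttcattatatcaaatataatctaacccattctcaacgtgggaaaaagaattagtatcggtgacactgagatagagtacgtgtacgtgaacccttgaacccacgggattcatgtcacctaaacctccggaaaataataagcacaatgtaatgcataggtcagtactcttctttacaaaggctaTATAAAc
PP2AA3 (AT1G13320), chr1:4567850-4568099, minus strand: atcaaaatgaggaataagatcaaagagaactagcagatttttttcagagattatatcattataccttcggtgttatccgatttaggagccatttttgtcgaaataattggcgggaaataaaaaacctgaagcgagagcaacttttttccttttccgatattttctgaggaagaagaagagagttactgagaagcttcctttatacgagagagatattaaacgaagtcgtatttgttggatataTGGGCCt
YLS8 (AT5G08290), chr5:2665649-2665898, plus strand: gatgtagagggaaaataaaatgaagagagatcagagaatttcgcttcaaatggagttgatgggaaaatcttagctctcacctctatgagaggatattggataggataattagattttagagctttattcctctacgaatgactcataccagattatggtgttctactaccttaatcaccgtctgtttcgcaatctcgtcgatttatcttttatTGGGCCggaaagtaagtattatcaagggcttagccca
In DR4 the word stood 224, 89 and 41 bases before the gene start, in AT3G28550 125, in BGLU18 177 and in TGG2 7 bases before it. These windows were chosen because they hold the word, and in DR4 alone of the 4 it lay between 50 and 15 bases before the start. A match describes the letters only, and no factor's binding was measured.

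Root hair genes are known to carry a root hair element, whose core was searched on both strands as the word TCACGA or the word TCACGT, and also as the word GCACGA or the word GCACGT. One of these words was in 9 of the 23 windows of the root hair list (39.1%), in 22.2% of windows of loci higher in roots and in 18.2% of all windows. The tapetum list had one in 25% of its windows and the pollen list in 20% of its windows. The 2 such genes with the largest ratio, the proline-rich wall protein PRP3 and the root hair protein RHS13, are shown with the word in capitals.
PRP3 (AT3G62680), chr3:23182472-23182721, plus strand: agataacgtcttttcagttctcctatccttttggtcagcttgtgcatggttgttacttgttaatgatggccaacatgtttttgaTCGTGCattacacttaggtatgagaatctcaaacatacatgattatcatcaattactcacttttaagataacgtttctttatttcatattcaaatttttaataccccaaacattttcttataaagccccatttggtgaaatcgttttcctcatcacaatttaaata
RHS13 (AT4G02270), chr4:993040-993289, minus strand: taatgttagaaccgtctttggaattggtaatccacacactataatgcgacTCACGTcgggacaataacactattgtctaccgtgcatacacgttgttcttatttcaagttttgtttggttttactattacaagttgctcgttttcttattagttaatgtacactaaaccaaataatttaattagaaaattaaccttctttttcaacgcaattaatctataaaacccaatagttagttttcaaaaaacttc

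The coding sequences differed too. Loci higher in roots had a median of 337.5 codons and loci higher in flowers of 318, against 374 for all protein-coding loci compared. A single exon was found in 25.1% of loci higher in roots, 20.13% of those higher in flowers and 17.1% of all. Proline is encoded by codons that begin with CC, and glycine by those that begin with GG. Of 85 loci in which CC codons made up at least 20% of the coding sequence, 31 were 4-fold higher in roots and 24 in flowers. The corresponding counts for glycine were 13 and 16 of 84. Among all protein-coding loci compared, 9.005% were 4-fold higher in roots and 13.1% in flowers. The 50 codons richest in proline codons of a root extensin and the 50 richest in glycine codons of a pollen coat protein are shown, with those codons in capitals.
AT3G28550, codons 61 to 110: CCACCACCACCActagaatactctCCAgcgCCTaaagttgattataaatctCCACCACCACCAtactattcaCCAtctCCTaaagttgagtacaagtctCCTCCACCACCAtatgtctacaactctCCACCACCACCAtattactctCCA
GRP17 (AT5G07530), codons 403 to 452: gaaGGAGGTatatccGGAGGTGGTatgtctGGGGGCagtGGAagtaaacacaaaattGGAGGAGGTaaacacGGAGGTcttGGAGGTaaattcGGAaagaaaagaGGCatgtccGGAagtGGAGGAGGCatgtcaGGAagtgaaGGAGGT
The extensin AT3G28550, a wall protein that forms a rigid network, stood at 847 FPKM in roots, 0.346 in leaves, 0.0666 in flowers and was listed at 0 in siliques. CC codons made up 38.05% of its 1025 codons. GRP17, an oleosin-like protein of the pollen coat, stood at 0.0354 FPKM in roots and 566 in flowers, with 0.00435 in leaves and 0.00641 in siliques, and GG codons made up 26.7% of its 544 codons.

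The largest ratio toward roots was that of GRP9 (AT2G05440), a glycine-rich protein at chr2:1993082-1994174 (TAIR10). GRP9 measured 2227 FPKM in roots and 0.00872 in flowers, with 15.5 in leaves and 0.288 in siliques, a log2 ratio of 11.11. DR4 (AT1G73330), a protein of the protease inhibitor type whose transcript is known to fall under drought, followed with 1776 FPKM in roots and 0.0114 in flowers, with 26.5 in leaves and 0.0654 in siliques. MLP34 (AT1G70850), a member of the major latex protein family, reached 1421 FPKM in roots and 13.42 in leaves and was listed at 0 in flowers. Next came the glycine-rich AT2G05510 with 922 FPKM, AT5G26280 with 911 and the extensin AT3G28550. EARLI1 (AT4G12480), a proline-rich protein of the lipid transfer type, was at 778 FPKM in roots and 0.0529 in flowers, with 106 in leaves and 0.153 in siliques; an annotated gene lies opposite it. PBP1 (AT3G16420), a jacalin-type lectin that binds the ER body glucosidase PYK10, stood at 1061 FPKM in roots and 0.605 in flowers, with 190.2 in leaves and 2.402 in siliques. MLP329 (AT2G01530) at 620.1 FPKM and AT1G19530 at 603 completed the first 10. In all 10 the flower value was below 1 FPKM. Roots were the highest of the 4 libraries in each of them.

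The largest ratio toward flowers belonged to BGLU18 (AT1G52400), a glucosidase of leaf ER bodies that releases abscisic acid from its glucose ester, at chr1:19515151-19518211 (TAIR10). BGLU18 stood at 0.376 FPKM in roots and 2109.6 in flowers, with 97.4 in leaves and 936 in siliques, a ratio of -10.58. TGG2 (AT5G25980), a myrosinase that cleaves glucosinolates, was at 0.318 FPKM in roots and 1803 in flowers, with 401 in leaves and 1763 in siliques. AT2G20870, annotated opposite another gene, was listed at 0 in roots and had 945 FPKM in flowers and 11.4 in siliques. The thionin THI2.1 (AT1G72260), an antimicrobial peptide, was listed at 0 in roots and measured 775 FPKM in flowers and 1333 in siliques. MLP423 (AT1G24020), of the same family as MLP34, stood at 0.142 FPKM in roots and 853 in flowers, with 55.3 in leaves and 241 in siliques. The pollen coat proteins GRP19 and GRP17, the lipid transfer type AT1G66850, a joined locus of AT5G33365 and AT5G33370, and AT3G07850, a polygalacturonase-like gene with a near-identical copy, completed the first 10. Siliques were above flowers only in THI2.1 among these 10.

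Among loci whose intervals did not overlap, the largest ratios toward roots were those of the lectins JAL33 (9.04) and JAL31 (6.84), the lipid transfer type AT5G46900 (7.41), EXT13 (7.11) and the transcription factor WRKY65 (6.92). Toward flowers they were LTP12, a tapetal lipid transfer protein (-8.29), AT1G11850 (-7.71), SEP3 (-7.49), the cold-induced chloroplast protein COR15A (-7.44) and the alcohol dehydrogenase CAD9 (-7.00). WRKY65 stood at 143 FPKM in roots and 0.197 in flowers, with 2.39 in leaves and 1.55 in siliques. CAD9 was at 4.11 FPKM in roots and 653 in flowers, with 122 in leaves and 433 in siliques. The highest values were ranked among loci with a usable status in both organs. This left out 147 loci, among them 36 with the status FAIL in roots, 3 with the status HIDATA there and 22 with the status FAIL in flowers. In this ranking TCTP, the translationally controlled tumour protein, was first in roots at 4440 FPKM. TCTP also ranked among the first 3 in flowers, at 2901. RBCS1A, a small subunit of Rubisco, led in flowers with 4855 FPKM and had 71.9 in roots.

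**Figure D2:**
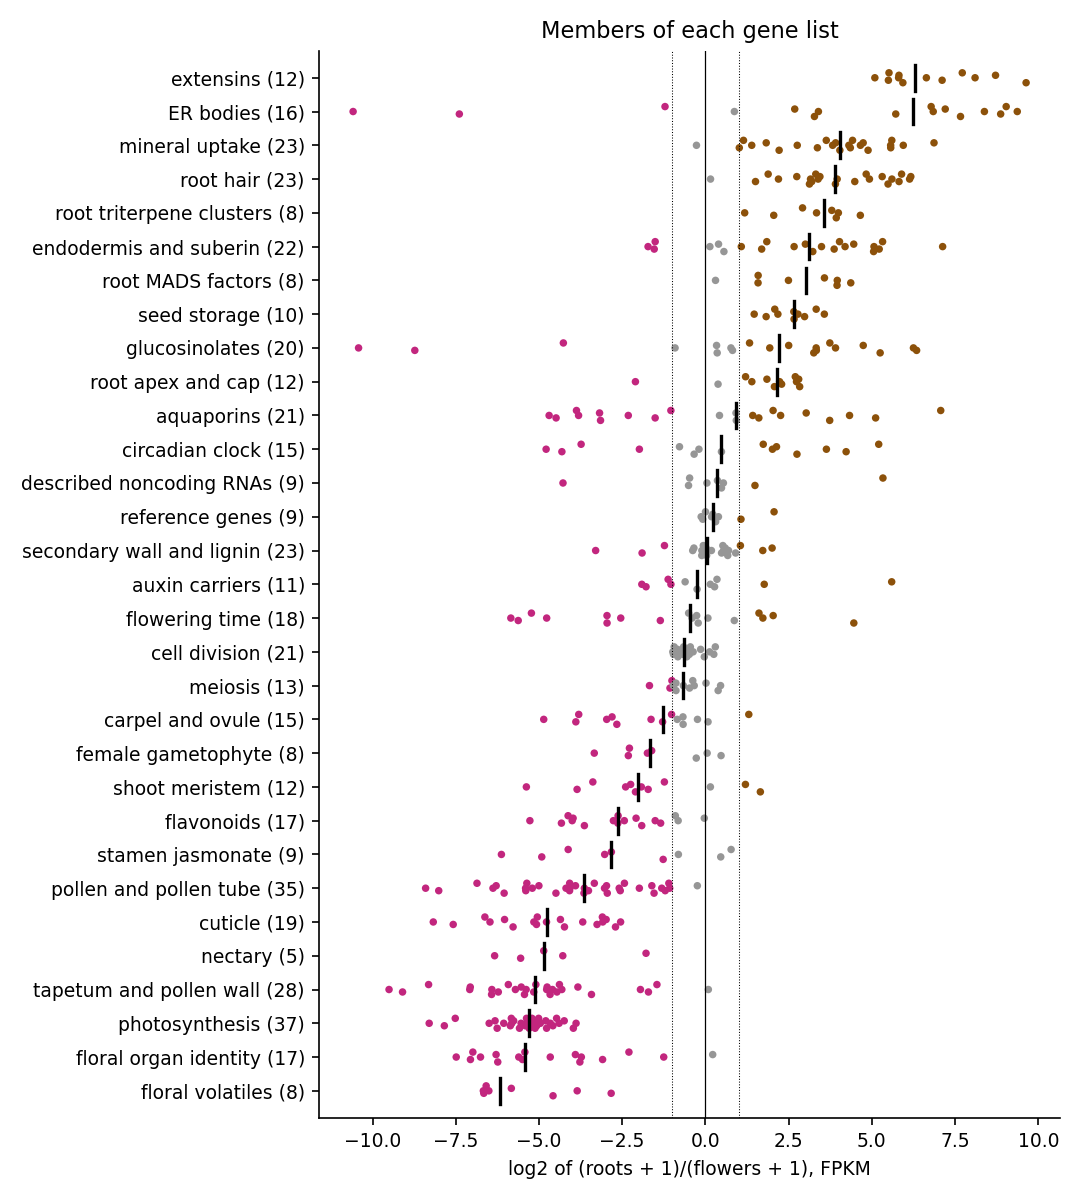
Each point is a compared gene of 1 of 31 lists, on the log2 of (roots + 1)/(flowers + 1); black bars are list medians, dotted lines mark 2-fold and the number compared stands in brackets. Medians run from 6.29 for the extensins to -6.17 for floral volatiles, and single genes of the ER body and glucosinolate lists lie at the opposite end from their list.

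Mineral uptake genes were read first, in a list chosen with earlier results of these data known, so it cannot check the root label. Of the 23 compared, 22 passed 2-fold toward roots and none toward flowers, with a median of 4.04, against -0.05 over all loci. PHT1;1, a phosphate transporter whose reads may be shared with a near-identical copy, stood at 117 FPKM in roots, 2.76 in leaves and 0.00668 in flowers. AMT1;3, an ammonium transporter, had 63.0 FPKM in roots and 0.0391 in flowers, with 0.714 in leaves and 1.01 in siliques. IRT1, the main iron transporter, had 374 FPKM in roots and 0.375 in leaves and was still at 16.5 in flowers. The reductase FRO2, which serves IRT1, was at 141 FPKM in roots and 3.80 in flowers, and FIT, the factor that activates both, at 39.6 and 0.608. The boron exporter BOR1 was the member that did not pass, with 51.3 FPKM in roots and 62.0 in flowers, with 11.2 in leaves and 11.7 in siliques. 

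Of the 23 root hair genes, 22 were higher in roots, with a median of 3.91. The wall proteins led: AGP3, an arabinogalactan protein, stood at 71.1 FPKM in roots and was listed at 0 in flowers. PRP3 had 73.5 FPKM in roots and 0.0604 in flowers, with 0.140 in leaves and 0.0347 in siliques. The bHLH factors that start hair growth were lower in level, with RHD6 at 9.55 FPKM in roots and at most 0.00865 in the other 3 libraries. All 4 compared regulators passed 2-fold toward roots, but only 3 passed 4-fold, and the smallest ratio was 1.51. The kinase IRE was the exception, at 3.91 FPKM in roots and 3.42 in flowers. All 12 compared extensins were 4-fold higher in roots, with a median of 6.29. EXT4 stood at 1285 FPKM in roots and 11.9 in flowers, with 183 in leaves and 2.71 in siliques.

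The endodermis list divided by function. All 9 compared Casparian strip genes were higher in roots, with a median of 4.46. CASP1, a scaffold of the strip, had 141 FPKM in roots and 0.0150 in flowers, with 0.480 in leaves and 0.00793 in siliques. The peroxidase PER64 stood at 72.7 FPKM in roots, 1.22 in flowers and 429 in siliques, the only compared member of the strip group with its highest value outside roots. Of 11 genes of suberin, the lipid polyester laid down behind the strip, 7 were higher in roots and 3 in flowers. The hydroxylase CYP86A1 was at 50.8 FPKM in roots and 0.295 in flowers. The acyltransferase GPAT5 was at 12.7 FPKM in roots and 38.8 in flowers, with 0.154 in leaves and 0.794 in siliques. The fatty acyl reductase FAR1 had 13.2 FPKM in roots and 45.7 in flowers, and the elongase KCS2 19.3 and 56.8. The patterning genes SHR and SCR, which specify the endodermis, were within 2-fold, SHR at 14.99 and 13.6 FPKM and SCR at 23.7 and 17.8.

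In the root apex and cap list 10 of 12 genes were higher in roots and 1 in flowers, with a median of 2.15. The root cap factors SMB and BRN1 were at 5.62 and 5.67 FPKM in roots, and at 0.0180 and listed at 0 in flowers. The receptor kinase ACR4, which acts in the root stem cell niche and in the shoot epidermis, had the opposite order, with 2.48 FPKM in roots and 14.0 in flowers, with 6.08 in leaves and 10.8 in siliques. All 8 compared genes of the triterpene gene clusters were higher in roots, with a median of 3.57. In flowers the 8 summed to 0.0671 FPKM, so they entered the comparison through roots alone. The triterpene synthase PEN1 had 25.02 FPKM in roots and 0.0330 in flowers. Of the 8 root MADS-box factors 7 were higher in roots, among them AGL21, which promotes lateral root growth, at 27.5 and 0.379 FPKM. AGL42 was the exception at 15.9 and 12.7.

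Genes of other material were compared as well. All 10 compared seed storage genes were at least 2-fold higher in roots, with a median of 2.66. Their levels in roots were low, from 1.96 FPKM for M17 to 10.9 for SESA5, an albumin listed at 0 in flowers. In flowers the 10 summed to 1.06 FPKM, so they entered the comparison through roots alone. That filter largely set the 2-fold count beforehand, and 2 further entries were below 1 FPKM in both organs. Photosynthesis genes were higher in flowers for 37 of 37 compared, with a median of -5.29. They ranged in roots from 1.24 FPKM for plastocyanin PETE1 to 106 for the antenna protein LHCA4, and in flowers from 125 to 4855. Neither list's part in other results was tested.

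In flowers, 16 of 17 compared floral organ identity genes were at least 2-fold higher and none was higher in roots, with a median of -5.42. SEP3, a cofactor of all organ identity complexes, was listed at 0 in roots and stood at 4.89 FPKM in leaves, 178 in flowers and 186 in siliques. PI, which specifies petals and stamens, had 0.909 FPKM in roots and 241 in flowers, with 0.517 in leaves and 2.89 in siliques. The carpel gene AG was listed at 0 in roots and had 41.9 FPKM in flowers. AP2, which specifies sepals and petals and is known to be controlled by a microRNA at the level of translation, was within 2-fold at 23.8 FPKM in roots and 20.3 in flowers.

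Male genes came next. Of 28 compared genes of the tapetum and pollen wall, 27 were higher in flowers, with a median of -5.12. GRP19 stood at 0.124 FPKM in roots and 815 in flowers, with 0.571 in leaves and 0.0804 in siliques. EXL4, a lipase of the pollen coat, was listed at 0 in roots and leaves, with 318 FPKM in flowers and 1.28 in siliques. Genes of the role named sporopollenin synthesis and export, after the polymer of the pollen wall, were higher in flowers in 12 of 12 cases, with KNS4, a galactosyltransferase, at 0.435 FPKM in roots and 85.9 in flowers. QRT1, a pectin methylesterase that lets the pollen grains of a tetrad part, did not follow, at 2.85 FPKM in roots and 2.62 in flowers. Of 35 compared genes of pollen and its tube 34 were higher in flowers, with a median of -3.65. The pectin methylesterase VGD1 measured 0.0163 FPKM in roots, 343 in flowers and 24.9 in siliques. The sperm cell gene GEX1 was within 2-fold, at 7.90 FPKM in roots and 9.52 in flowers.

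Of 8 compared genes of the female gametophyte 5 were higher in flowers and none in roots, with a median of -1.68. All 5 egg cell peptides of the EC1 group were higher in flowers, from 2.37 to 9.11 FPKM there and at most 0.343 in roots. These 5 thus entered the comparison through flowers alone. The 3 regulators were within 2-fold, with ratios of 0.47 for DME, 0.05 for AGL80 and -0.27 for MYB98. Of 15 carpel and ovule regulators 9 were higher in flowers and 1 in roots, with a median of -1.29. CRC, which shapes the carpel and the nectary, was listed at 0 in roots and had 28.0 FPKM in flowers and 0.0332 in siliques; an annotated gene lies opposite it. ATS, a regulator of ovule integuments, was the one higher in roots, at 11.7 FPKM against 4.14 in flowers. Of 13 meiosis genes 3 were higher in flowers and none in roots, beside 25% and 17.2% of all loci, and the median was -0.66. DMC1, the meiotic recombinase, had 3.50 FPKM in roots and 13.41 in flowers, with 7.47 in leaves and 7.07 in siliques. 

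All 8 compared genes of a list chosen as floral volatiles were higher in flowers, with a median of -6.17. The terpene synthase TPS10 was listed at 0 in roots and leaves and reached 101 FPKM in flowers. Over the whole family of 32 terpene synthases and cyclases, 14 were 4-fold higher in roots (43.8%) and 8 in flowers (25%). The cineole synthases TPS-CIN (AT3G25820 and AT3G25830), near-identical copies, each had 176 FPKM in roots and at most 0.0479 in flowers. All 5 nectary genes were higher in flowers, with SWEET9, the nectar sugar exporter, listed at 0 in roots and at 79.5 FPKM in flowers. Of 9 compared genes of stamen jasmonate 6 were higher in flowers. They included all 4 MYB regulators, such as MYB21, listed at 0 in roots and at 68.9 FPKM in flowers. The receptor COI1, at 24.5 FPKM in roots and 13.9 in flowers, and the synthesis enzyme AOS, at 16.6 and 11.8, were within 2-fold. All 19 compared cuticle genes were higher in flowers, with a median of -4.77. CER1, which makes the alkanes of wax, stood at 0.580 FPKM in roots and 455 in flowers, with 27.4 in leaves and 519 in siliques. Of 17 flavonoid genes 14 were higher in flowers, with a median of -2.62, and TTG1, a regulator shared with hair patterning, was at 27.8 FPKM in roots and 28.5 in flowers.

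Lists of growth had small differences or were mixed. None of 21 cell division genes passed 2-fold in either direction, and the median was -0.63. The cyclin CYCB1;1 had 7.68 FPKM in roots and 11.8 in flowers, with 4.29 in leaves and 3.099 in siliques. Of 12 shoot meristem regulators 9 were higher in flowers, led by STM at 0.0175 FPKM in roots and 41.3 in flowers. CLV1, a receptor kinase of the stem cell pathway, was higher in roots at 31.5 and 13.1 FPKM, and so was LAS, at 3.76 and 0.516. Of 18 flowering time genes 8 were higher in flowers and 4 in roots, beside 25% and 17.2% of all loci. TOE1, a repressor of flowering and a target of a microRNA, stood at 43.9 FPKM in roots and 1.04 in flowers, with 42.2 in leaves and 1.405 in siliques. The SPL factors, which promote flowering with age, had the opposite order. SPL9 had 0.301 FPKM in roots and 47.7 in flowers, with 6.62 in leaves and 7.03 in siliques, with an annotated gene opposite it. For the genes of lignin and secondary walls the median was 0.04, with 3 of 23 higher in each organ. Both counts stand beside 17.2% of all loci for roots and 25% for flowers. The thickening regulator MYB26 of the anther wall was listed at 0 in roots and stood at 8.83 FPKM in flowers.

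Of 11 auxin carriers 2 were higher in roots, 4 in flowers and 5 within 2-fold. Of all loci, 17.2% were higher in roots at 2-fold and 25% in flowers. PIN2, which carries auxin up the root epidermis, had 69.7 FPKM in roots and 0.461 in flowers, with 0.457 in leaves and 0.0994 in siliques. Of 21 aquaporins, the water channels, 9 were higher in each organ. The vacuolar TIP2;3 stood at 136 FPKM in roots and 0.0222 in flowers. TIP1;3, a vacuolar channel known from pollen, stood at 0.00794 and 21.6. The plasma membrane channel PIP2;6 stood at 4.56 FPKM in roots and 143 in flowers, with 283 in leaves and 211 in siliques.

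Glucosinolate genes were read by role. Of 9 compared synthesis genes 7 were higher in roots and none in flowers, with a median of 3.26. CYP81F4, which modifies indole glucosinolates, was at 149.9 FPKM in roots and 2.96 in flowers, with 2.20 in leaves and 0.0295 in siliques, with an annotated gene opposite it. MYB51, a regulator of the indole branch, was at 36.6 FPKM in roots and 0.405 in flowers. Of 7 genes of transport and breakdown 2 were higher in roots, 3 in flowers and 2 within 2-fold. These small counts stand beside 17.2% of all loci for roots and 25% for flowers. The myrosinases among them were higher in different organs. TGG4 and TGG5, near-identical copies whose reads may be shared, reached 75.1 and 80.3 FPKM in roots but were listed at 0 in flowers. TGG1 was at 2.26 FPKM in roots and 1383 in flowers, with 1944 in leaves and 864 in siliques. The ER body list was divided too. Of 16 compared genes 12 were higher in roots and 3 in flowers, with a median of 6.25. The glucosidase BGLU21 was at 591 FPKM in roots and 0.265 in flowers, against 0.376 and 2109.6 for BGLU18.

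Closest paralogs were then compared across the genome. Coding sequences of compared loci were paired where each was the other's best match, at 70% identity or more over at least 70% of the longer sequence, a comparison chosen after seeing the values. Of 3108 pairs, both members were 4-fold higher in roots in 174 and in flowers in 229. In 647 pairs only 1 member passed 4-fold, and in 44 pairs (1.42%) the members passed it in opposite directions. Among all protein-coding loci compared, 9.005% were 4-fold higher in roots and 13.1% in flowers. Opposite directions were the exception, beside 403 pairs with both members higher in the same organ. Whether 44 differs from the number for unrelated loci was not tested, and the pairs named below were picked from these 44. The largest contrast was between MLP34 and MLP28, whose coding sequences were 88.5% identical. MLP28 stood at 11.9 FPKM in roots and 423 in flowers, with 111 in leaves and 213 in siliques, where MLP34 was at 1421 FPKM in roots and listed at 0 in flowers. Lectins JAL22 and JAL23, 86.5% identical, were at 114 and 0.0215 FPKM in roots and at 0.0443 and 171 in flowers. The subtilisin-like proteases SBT4.12 and SBT4.13, 86.4% identical, were at 141 and 0.00668 FPKM in roots and at 0.0118 and 24.0 in flowers. The methyltransferase TSM1, known from the tapetum, was at 0.0135 FPKM in roots and 174 in flowers, and CCOAMT, 83.0% identical, was at 11.1 and 0.291. Polygalacturonase inhibitors PGIP1 and PGIP2, which are neighbours that protect walls from fungal enzymes, were at 106 and 0.540 FPKM in roots, against 8.01 and 44.7 in flowers. Flavonol synthase FLS1 was at 8.86 FPKM in roots and 171 in flowers, and FLS3 at 15.1 and 0.372. The nitrilases NIT2 and NIT1, 91.2% identical, were at 135 and 91.5 FPKM in roots, against 14.7 and 582 in flowers. Pairs of this kind also held sulfate, phosphate and copper transporters. SULTR1;2 had 115 FPKM in roots and 4.65 in flowers, while SULTR1;3 was lower in roots than in flowers.

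**Figure D3:**
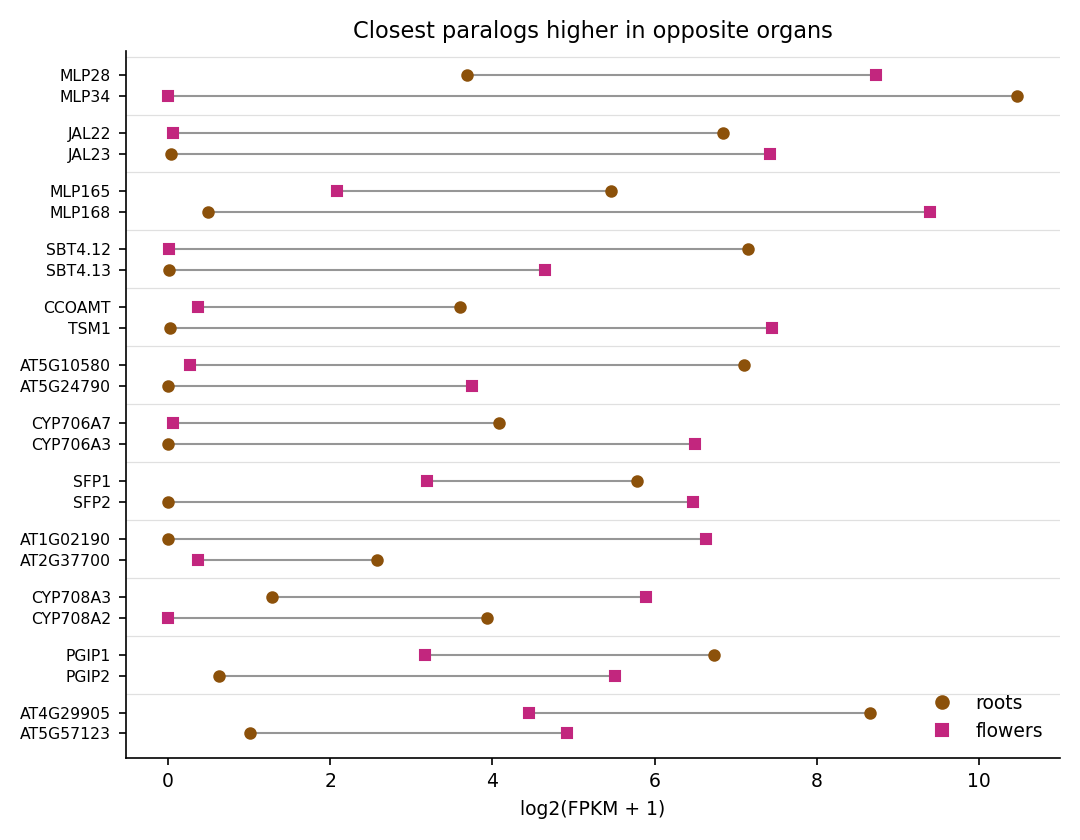
The 12 pairs of closest paralogs with the largest difference between their ratios, among the 44 of 3108 pairs that passed 4-fold in opposite directions. Circles are roots and squares flowers, on log2(FPKM + 1). In each pair 1 gene has its circle on the right and the other its square, as for MLP34 at 1421 FPKM in roots and MLP28 at 423 in flowers.

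Over whole families, named by their annotated products, the direction was often uneven. The background among 20545 protein-coding loci was 9.005% higher in roots at 4-fold and 13.1% higher in flowers. Peroxidases, most of which cross-link walls, had 42 of 78 compared members higher in roots and 11 in flowers. AT3G32980 reached 1083 FPKM in roots and 2.49 in flowers, with 19.8 in leaves and 0.847 in siliques. Of 44 glutathione transferases, which detoxify reactive compounds, 15 were higher in roots and 5 in flowers; GSTF7 was at 292 and 0.476 FPKM. Of 28 jacalin-type lectins 13 were higher in roots and 2 in flowers. Their median in flowers was 0.0413 FPKM, so many of them were compared only because they reached 1 FPKM in roots. All 8 compared members of the major latex protein group passed 4-fold, 5 toward roots and 3 toward flowers. Among 44 products annotated as extensin or pollen Ole e 1 allergen and extensin, 22 were higher in roots and 13 in flowers. Those led in flowers by AT5G22430, at 0.274 FPKM in roots and 539 in flowers, carry the pollen allergen annotation.

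Families with most calls toward flowers were secreted peptides and enzymes of pectin and lipid. Of 84 defensin-like peptides 45 were higher in flowers and 7 in roots. RALF peptides, signals that change the pH of the wall, had 15 of 27 higher in flowers and 2 in roots. RALFL8 was listed at 0 in roots and leaves and reached 442 FPKM in flowers, with 34.7 in siliques, whereas RALF1 was at 113 FPKM in roots and 7.31 in flowers. Among 28 self-incompatibility-like proteins 13 were higher in flowers and none in roots. Of 97 products of the pectin methylesterase and inhibitor type 46 were higher in flowers and 13 in roots, and of 70 GDSL lipases 34 and 9. Lipid transfer proteins had both, with 48 of 101 higher in flowers and 27 in roots. LTP4 was at 0.207 FPKM in roots, 491 in flowers and 5104 in siliques. Arabinogalactan proteins included AGP30, at 131 FPKM in roots and 0.00490 in flowers, and AGP23, listed at 0 in roots and at 365 FPKM in flowers.

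Transcription factor families were uneven too. Of 55 WRKY factors, many of them active in defence, 18 were higher in roots and 1 in flowers. WRKY36 had 43.4 FPKM in roots and 0.329 in flowers, with 0.792 in leaves and 0.630 in siliques. Of 70 ERF or AP2 factors 21 were higher in roots and 5 in flowers, with LEP at 38.1 and 0.105 FPKM. The 52 B3 factors had the reverse pattern, with 16 higher in flowers and 1, TEM1, in roots. TEM1, a repressor of flowering, stood at 29.0 FPKM in roots and 4.01 in flowers. Among 51 MADS-box factors 22 were higher in flowers and 5 in roots. Of 127 MYB factors 25 were higher in roots (19.7%) and 19 in flowers (14.96%); HRS1, a factor of phosphate and nitrate responses, was at 51.8 and 0.00737 FPKM. Kinesins, motors of the microtubules, had none of 28 at 4-fold in either direction. Of 317 ribosomal proteins 37 were higher in flowers (11.7%, beside 13.1% of all) and 1 in roots (0.315%, beside 9.005%), and the median was 0.10. Those higher in flowers were led by AT3G28500, of the 60S acidic ribosomal proteins, at 0.125 FPKM in roots and 201 in flowers. They also included the plastid subunits RPL15, at 13.8 and 185 FPKM, and PSRP3/1, at 6.57 and 183.

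**Figure D4:**
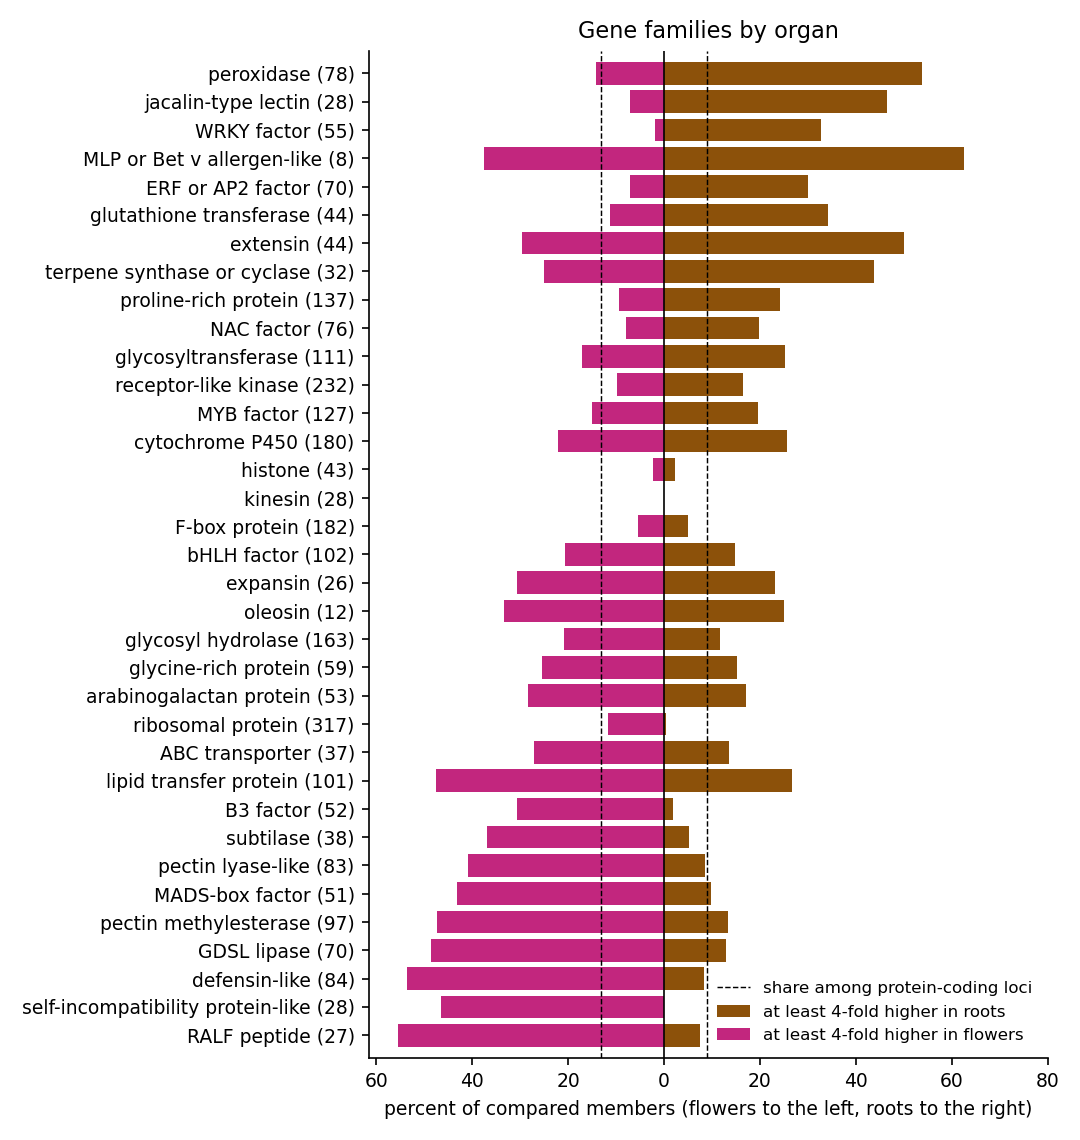
Bars give the percent of compared members of each family that were at least 4-fold higher in roots (right) or flowers (left), with the number compared in brackets. Dashed lines are the shares among all protein-coding loci, 9.005% and 13.1%; peroxidases, jacalin-type lectins and WRKY factors lie toward roots, and RALF and defensin-like peptides toward flowers.

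Some of these genes lay side by side. Runs of at least 3 consecutive compared loci that were all 4-fold higher in the same organ held 156 of 1883 placed loci toward roots, in 45 runs, and 281 of 2740 toward flowers, in 83 runs. The longest root run, 8 loci at chr3:5562400-5595912 (TAIR10), held the nitrile specifier proteins NSP3, NSP1 and NSP4, which steer glucosinolate breakdown, the lectins PBP1, JAL31, JAL33 and JAL34 and the myrosinase-binding MLP-300B. Its median ratio was 6.26. A run of 6 at chr4:7401087-7421828 held AZI1, a lipid transfer type protein of systemic immunity, EARLI1 and 4 related genes, from 5.37 FPKM in roots for AT4G12490 to 778 for EARLI1. AT4G12490 had 37.3 FPKM in leaves and 0.00863 in flowers. The 4 methyltransferases IGMT1 to IGMT4 of indole glucosinolates were a run too; IGMT1 was at 200.2 FPKM in roots and 0.158 in flowers, and IGMT4 at 53.6 and 0.268 with 220.1 in leaves. Toward flowers, the longest run held 10 loci at chr1:8354806-8378769, mostly of an uncharacterised family, with a median of -3.65. The pollen coat cluster at chr5:2370133-2391439 held 7 loci, among them GRP14, GRP16, GRP17, GRP18, GRP19 and GRP20, with a median of -6.42. A run of 5 at chr1:28498821-28514284 joined the lipases EXL4 and EXL6 and the glucosidase ATA27. Neighbours in such runs are often related copies and are not independent of each other.

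Clock genes divided by their time of day. Of 6 genes that peak in the morning 4 were higher in flowers and none in roots, and of 9 that peak in the afternoon and evening 7 were higher in roots and none in flowers. The morning repressor LHY stood at 1.26 FPKM in roots and 61.4 in flowers, with 19.7 in leaves and 10.96 in siliques, and its partner CCA1 at 1.48, 44.0, 48.1 and 16.7. ELF4 of the evening complex stood at 84.9 FPKM in roots and 1.33 in flowers, with 4.55 in leaves and 5.25 in siliques. FKF1, a blue light receptor of the afternoon, was at 25.7 FPKM in roots and 0.425 in flowers, and TOC1 was at 81.7 and 11.3. In LHY, CCA1 and RVE8 the intervals of the 2 libraries did not overlap. The labels give no hour of harvest, so organ and hour cannot be told apart.

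**Figure D5:**
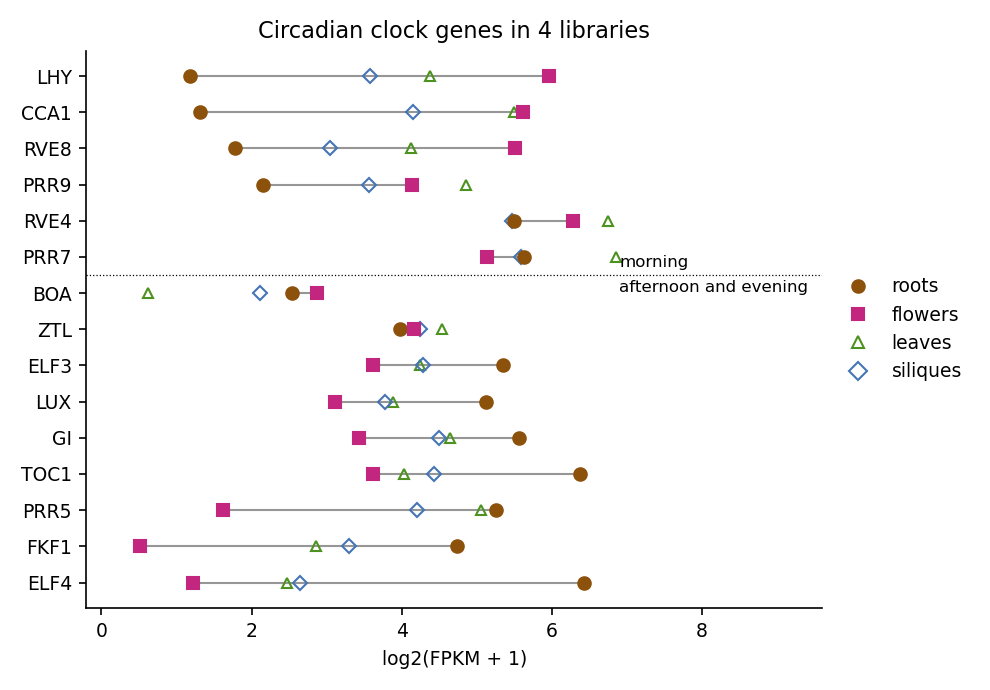
Levels of 15 clock genes on log2(FPKM + 1), with a line from flowers (square) to roots (circle) and open symbols for leaves and siliques. Morning genes such as LHY (1.26 FPKM in roots, 61.4 in flowers) are above the dotted line, and evening genes such as ELF4 (84.9 and 1.33) below it.

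Of 9 compared reference genes in common use for quantitative PCR, 7 were within 2-fold and 2 were higher in roots, with a median of 0.22. Beside them, 17.2% of all loci were higher in roots at 2-fold and 25% in flowers. AT4G26410 stood at 35.2 FPKM in roots and 35.1 in flowers, and PP2AA3 at 48.9 and 42.9. The actin ACT2 was at 698 FPKM in roots and 166 in flowers, with 281 in leaves and 155 in siliques, a ratio of 2.06. The ubiquitin UBQ10 was at 1155 FPKM in roots and 550.1 in flowers.

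Of 247 compared long or other noncoding loci, 19 were 4-fold higher in roots (7.69%) and 24 in flowers (9.72%), beside 8.92% and 12.97% of 20922 protein-coding ones by class. AT5G07322 led in roots with 55.9 FPKM, 1.39 in leaves, 0.416 in flowers and 0.293 in siliques. AT1G11185 was at 33.5 FPKM in roots and 0.358 in flowers. AT4, a phosphate-starvation RNA that binds a microRNA, stood at 131 FPKM in roots and 2.27 in flowers, with 21.8 in leaves and 0.953 in siliques. APOLO, a noncoding RNA next to a regulator of auxin transport, was higher in flowers at 22.6 FPKM against 0.216 in roots. AT5G40348 measured 0.0136 FPKM in roots and 55.0 in flowers, and it overlaps MYB24 on the opposite strand, itself at 16.4 FPKM in flowers. The other 2 noncoding loci with the largest ratios toward flowers, AT4G04077 and AT1G68568, and AT1G67328 toward roots also lie opposite an annotated gene. The labels do not state that strand was used, and reads of such a pair cannot be told apart. An annotated gene also lies opposite THI2.1, CASP1, PER64, FAR1, KCS2, JAL34, KNS4, GRP16, QRT1, COI1, MYB21, MYB98, LHCA4, FKF1 and AT4G26410. Their values carry the same limit.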

How the data were processed

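RNA sequencing libraries of 4 organs, 1 each, were made from total RNA with a TruSeq version 2 kit, per the labels' protocols. TopHat, Cufflinks and the TAIR10 genome are named in the submitters' processing notes. For their versions, for strand handling and for depth in reads, a value is not given in the sources used here. Each row of the authors' deposited table holds, per the file headers, for each locus and library an FPKM, an interval around it and a status. Among 46 loci taken as 1 fragment in both libraries, the FPKM of that fragment in flowers was 1.01 times that in roots.

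From these values the log2 of (roots + 1)/(flowers + 1) was computed for 22515 loci (21602 of 1 gene, 738 that join several genes and 175 without a name) with status OK in both organs and at least 1 FPKM in either; 147 loci without a usable status were left out. With 1 library per organ there is no test. Loci were counted at 4-fold, genes of lists at 2-fold and families, noncoding loci, runs and sequence features at 4-fold. A locus below 1 FPKM in 1 organ was compared only through the other organ. That favours a count toward the other organ. The 31 lists held 554 entries for 552 genes: 504 were compared, 31 were below 1 FPKM in both organs, 14 were joined with another gene, 2 lacked a usable status and 3 symbols belonged to another locus (EXL5, TPS11 and TIP41) and were left out. The comparison, its lists and its families were chosen with earlier results of these data known. Named genes were the 10 largest ratios per direction, the 5 largest with separate intervals, the 3 largest noncoding, the 3 highest values per organ, and per list up to 4 genes along its median, 2 against it and 3 per role; others, including paralog, family and run members, were chosen after their values were seen. Names, products, positions of genes on each other and sequences come from RefSeq's TAIR10.1 annotation. Of 32115 placed nuclear loci of 1 gene, 98.4% overlapped the same code there. Paralogs and near-identical copies were found with BLAST 2.17.0, other steps used Python 3.11.15 with pandas 2.3.3. The counting rule was tested on simulated data, with large changes planted in well expressed loci and counting noise only. That checks the code and says nothing of variation between libraries. Alternatives were pseudocounts of 0.1 and 5 FPKM, other filters, folds of 2 and 8, separate intervals, median-of-ratios scaling and leaving out joined loci.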

Additional observations from a re-analysis of the deposited data

How the results depend on the processing

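The counts of 1953 loci higher in roots and 2865 loci higher in flowers depended on the fold and on the weight of low values. A pseudocount of 5 FPKM gave 919 and 1372, a fold of 2 gave 3871 and 5621, a fold of 8 gave 1019 and 1589, and separate intervals left 154 and 230. A pseudocount of 0.1 FPKM (2664 and 4205), a minimum of 5 FPKM (1784 and 2549), median-of-ratios scaling (1948 and 2874) and leaving out joined loci (1912 and 2804) stayed within 1.5 times. Dropping the filter on low values could not change them, since a locus below 1 FPKM in both organs cannot reach 4-fold with a pseudocount of 1. More loci were higher in flowers than in roots under each of these settings. Scaling moved ratios by a log2 of 0.01 in all. Pseudocounts shifted list medians by up to 3.28 on the log2 scale and named genes likewise. A pseudocount is added to both organs, so it cannot change the direction of a gene, and the unchanged directions are no check. No list median of 2-fold or more changed direction under the alternatives run for it. Smaller medians were not checked for this. Genes chosen after their values were seen were not recomputed. No paired analysis was possible because each organ is 1 library and the labels carry no replicate numbers.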
